A study of Mus musculus with 11 samples.

Results

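The 39 genes described here carry glucose into the cell, break it down to pyruvate, turn pyruvate into lactate and move lactate and pyruvate across membranes, and they gate the entry of pyruvate into the mitochondrion. They were chosen by symbol, as the enzymes, isoforms and transporters of glycolysis and of lactate and pyruvate handling, and each symbol matched 1 Ensembl identifier in the count table. All 39 of 37991 rows passed the filter on low counts, which left 17099 genes for testing. RNA was sequenced from the right retina of 11 mice at postnatal day 24, with 1 animal behind each library, in 4 groups. Wild-type C57Bl/6J mice received intraperitoneal saline (n = 2) or GSK2879552 (n = 3), an inhibitor of the histone demethylase LSD1 called GSK below, at 4.2 mg/kg. Mice of the rd10 strain B6.CXB1-Pde6brd10/Jrd10 received saline (n = 3) or the same dose of GSK (n = 3). All injections were daily from day 9 to day 24. The rd10 allele is a missense change in Pde6b, the rod phosphodiesterase subunit, that all rd10 animals carried, and it leads to the death of rods and later of cones. Nothing in the labels states litter or sex, and the p-values measure the spread between these animals.

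Photoreceptors are known for aerobic glycolysis: they take up glucose delivered through the pigment epithelium, convert much of it to lactate even when oxygen is present, and release the lactate to their neighbours. Hexokinase 2, pyruvate kinase M, lactate dehydrogenase A and the lactate transporter MCT1 (Slc16a1) are the isoforms usually named for this programme in rods and cones, while Müller glia and inner neurons use other members of the same families. Families of isoforms therefore let a bulk measurement be read by step and by the kind of cell that is known for each form, although no cell was measured singly here.

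Libraries held 19657030 to 28053367 counts, of which the 39 genes took 1.434% to 1.655%. Levels are CPM, read counts divided by library size after TMM scaling (trimmed mean of M values), changes are log2 ratios with their standard error after ±, and every adjusted p is from edgeR's quasi-likelihood test with Benjamini-Hochberg adjustment over the 17099 genes. A gene is said to have risen or fallen where that p was under 0.05. Pde6b stood at 2231 and 2301 CPM in wild-type saline, 332, 333 and 422 in rd10 saline and 991, 1381 and 1757 in rd10 GSK, and is no check of the allele, since a missense change leaves the transcript to be counted. Kdm1a, which encodes LSD1, differed little (-0.15 ± 0.061, adjusted p = 0.0725 in rd10 saline against wild-type saline, 0.18 ± 0.055, adjusted p = 0.0281 in rd10 GSK against rd10 saline), and its transcript is no check of the drug. Replicate 2 of wild-type saline and replicate 2 of rd10 GSK carried lens RNA, with marker sums of 499.6 and 5279 CPM. No other library exceeded 7.25 CPM, and results are also given without this pair. Without it wild-type saline keeps only replicate 1 and rd10 GSK only replicates 1 and 3. In calls that end there, lens RNA and the loss of animals cannot be told apart. Xist, the transcript of the inactive X chromosome, did not exceed 0.338 CPM in 4 libraries (replicate 2 of wild-type GSK, replicate 2 of rd10 saline, and replicates 1 and 3 of rd10 GSK) and reached at least 780.5 CPM in the 7 others. By that measure both sexes were present and unevenly spread, with Xist lacking in 0 of 2 saline and 1 of 3 GSK libraries of wild type and in 1 of 3 saline and 2 of 3 GSK libraries of rd10, and Pfkfb1, Pgk1, Pdha1 and Pdk3 lie on the X chromosome. A fit with a term for Xist, chosen after seeing the data, called 18 of the 39 genes in rd10 saline against wild-type saline (20 without the term), 24 in rd10 GSK against rd10 saline (22) and 8 in the interaction (8). It ended the falls of Pfkl and Eno3 in rd10 saline and the interaction call of Gapdh, and reversed no call of the 39 genes. In rd10 GSK against wild-type saline the term left 10 calls (13 without it), ending those of Pgk1, Pgam1, Bpgm and Eno1 and adding Mpc1. Against wild-type GSK 10 were left (11 without it), and the call of Pfkfb3 ended. The rod marker sum (8 genes) was 11.9%, 11.6% and 14.3% of the wild-type saline mean in the rd10 saline libraries and 39.6%, 63.9% and 77.6% in rd10 GSK replicates 1, 2 and 3.

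In untreated rd10 retina more of the glycolysis and lactate genes were lower than higher. Hk2, Pfkfb2, Slc16a1, Ldha, Pkm and Hk1 fell, whereas Hkdc1, Slc2a3 and Pfkfb3 rose. Of the 39 genes, 17 fell and 3 rose in rd10 saline against wild-type saline, against 19.0% of all tested genes that fell and 21.5% that rose (40.5% in either direction). The median log2 change was -0.18 for the 39 genes and 0.021 for all genes. All rd10 libraries lay below both wild-type libraries for 21 of the genes and above both for 5, where 62.2% of all genes did not overlap in either direction. In bulk retina, fewer cells of a type and less RNA per cell cannot be told apart. Leaving out the lens-bearing libraries, or wild-type saline replicate 1, left 1 wild-type saline library. Fewer of the 39 genes and fewer of all tested genes then passed, and the median of the 39 genes was -0.20 and -0.15.

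Under GSK, rd10 retina carried more RNA for hexokinase, pyruvate kinase, lactate dehydrogenase A and both main lactate transporters than under saline. Between rd10 GSK and rd10 saline 15 of the 39 genes rose and 7 fell, against 17.6% and 15.2% of all tested genes (32.9% in either direction). The median was 0.066 for the 39 genes and 0.0085 for all genes. Treated libraries lay wholly above the untreated ones for 17 genes and wholly below for 7, where 42.7% of all genes did not overlap. Without the lens-bearing libraries fewer of the 39 genes and fewer of all tested genes passed, at a median of 0.075 for the 39 genes. In a fit of the 6 rd10 libraries alone 11 rose and 4 fell. Of all genes 1943 rose and 1621 fell in that fit (3014 and 2607 in the main fit). This comparison shares the rd10 saline libraries with the comparison against wild type, so that a high or low value there enters both with opposite sign. Another scaling, by amacrine, bipolar and ganglion cell markers only, moved the median of all genes to 0.31 in this comparison and to -0.037 in the other. Under it 26 of the 39 genes were higher in rd10 GSK and none lower. Of all 17099 tested genes 8179 were higher there and 458 lower. Each fall under GSK among the 39 genes is therefore a fall relative to the bulk of transcripts. The value of each fall on that scale is given beside it.

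**Figure D1:**
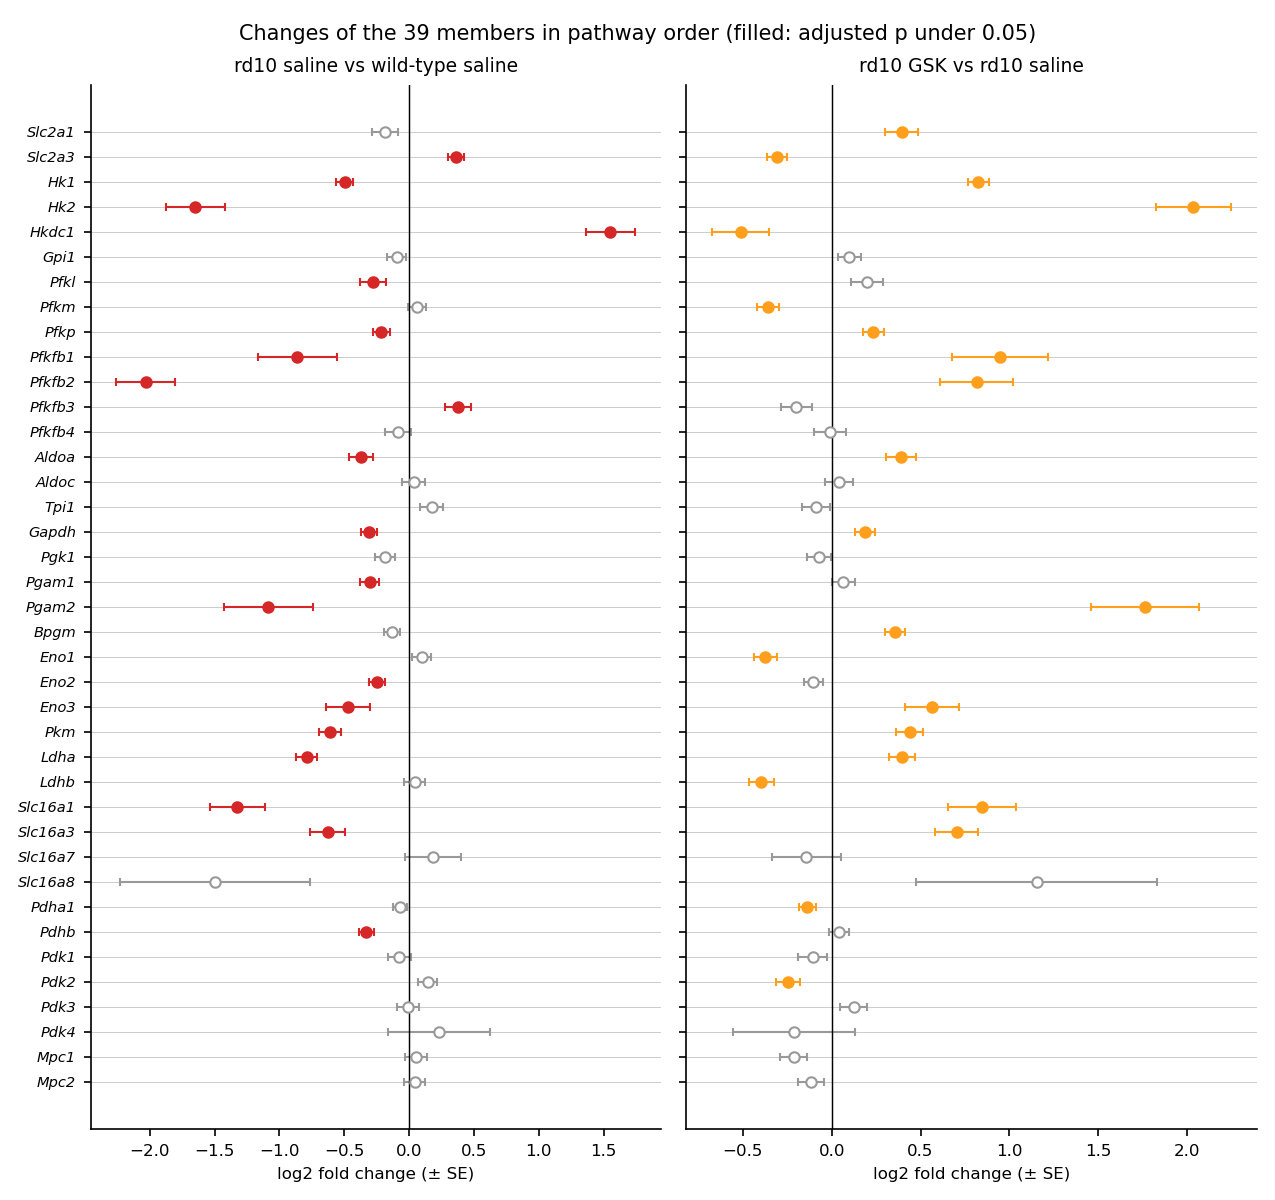
Log2 change (x axis, with standard error) of the 39 genes in pathway order from uptake to the mitochondrial carrier, for rd10 saline against wild-type saline (left) and rd10 GSK against rd10 saline (right); filled points passed an adjusted p of 0.05 and open points did not. Hk2 and Pfkfb2 lie farthest left in the first panel at -1.65 and -2.03, and Hk2 and Pgam2 farthest right in the second at 2.04 and 1.77.

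Glucose enters retinal cells through facilitative carriers. Slc2a1 encodes GLUT1, the carrier of the blood-retina barrier, the glia and the photoreceptors, and stood at 315 and 300.3 CPM in wild-type saline, 240.4, 295 and 276 in rd10 saline and 341, 388 and 336 in rd10 GSK. All rd10 saline libraries were below the wild-type ones without passing the test (-0.19 ± 0.10, adjusted p = 0.175), and the rd10 GSK libraries were above all others given here. Slc2a1 rose under GSK (0.39 ± 0.092, adjusted p = 0.00677). Slc2a3 encodes GLUT3, the carrier usually assigned to neurons, and had 138 and 132 CPM in wild-type saline, 178, 169.8 and 174 in rd10 saline and 151, 134 and 136 in rd10 GSK. It moved the other way, higher in every rd10 saline library than in wild type (0.36 ± 0.061, adjusted p = 0.000662) and lower in every rd10 GSK library than in rd10 saline (-0.31 ± 0.054, adjusted p = 0.00131; -0.0048 under the inner retina scaling). Per kilobase of exon, Slc2a1 was the more abundant carrier in every group, at 87.7 CPM per kb against 18.7 for Slc2a3 in wild-type saline.

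Hexokinases phosphorylate glucose and hold it in the cell. Hk2, the inducible form that photoreceptors use, stood at 425 and 399 CPM in wild-type saline, 130.2, 111 and 152 in rd10 saline and 399, 504 and 711 in rd10 GSK replicates 1, 2 and 3. Untreated rd10 libraries were far below all others without overlap, and the treated ones ran from the wild-type level to above it. Hk2 fell in rd10 saline (-1.65 ± 0.23, adjusted p = 0.000512) and rose under GSK (2.04 ± 0.21, adjusted p = 0.000179), the largest rise of the 39 genes.

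Hk1, the constitutive form found in most cells, had 1096 and 1054 CPM in wild-type saline, 749, 754 and 783 in rd10 saline and 1245, 1412 and 1397 in rd10 GSK. Its groups were tight and did not overlap in any pairing of these 3, with the treated rd10 libraries highest. Hk1 fell by a smaller amount than Hk2 in rd10 saline (-0.50 ± 0.066, adjusted p = 0.000147) and rose under GSK (0.83 ± 0.06, adjusted p = 4.76e-06) past the wild-type level (0.33 ± 0.067, adjusted p = 0.00577 against wild-type saline). Both hexokinases kept these calls against rd10 saline, and in rd10 saline against wild type, in every alternative tried. The call of Hk1 against wild-type saline ended without wild-type saline replicate 2 (adjusted p = 0.0642) and without the lens-bearing libraries (adjusted p = 0.144).

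Hkdc1, which encodes a protein with hexokinase domains and low activity, was scarce and went against its relatives. It had 12.4 and 13.1 CPM in wild-type saline, 38.03, 44.1 and 30.6 in rd10 saline and 32.3, 25.9 and 20.7 in rd10 GSK. Every rd10 library of either treatment was above the wild-type ones, and treated and untreated rd10 libraries overlapped. Hkdc1 rose in rd10 saline (1.55 ± 0.19, adjusted p = 0.000141) and was lower under GSK (-0.51 ± 0.16, adjusted p = 0.0305; -0.20 under the inner retina scaling). That second call ended without any one of rd10 saline replicates 1 and 2 and rd10 GSK replicates 2 and 3 (adjusted p = 0.0848, 0.115, 0.0906 and 0.0682).

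**Figure D2:**
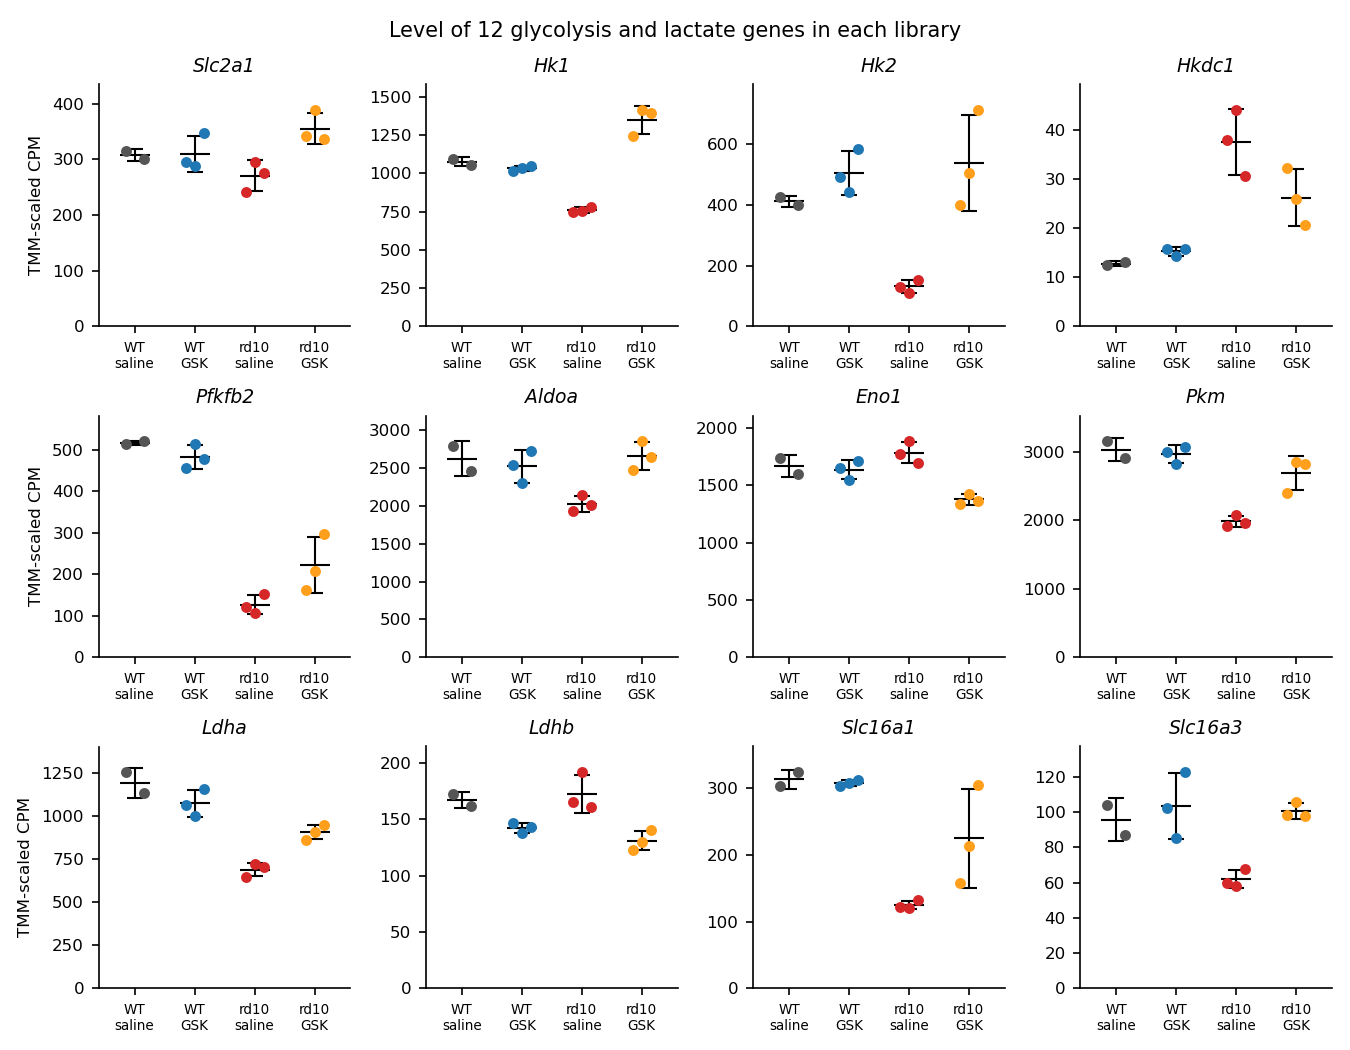
Level of 12 genes in each of the 11 libraries (points; y axis in CPM from 0), with the mean and standard deviation of each group as bars; WT is wild type. Hk2 stands at 130.2, 111 and 152 CPM in rd10 saline and 399, 504 and 711 in rd10 GSK, while Eno1 and Ldhb are lowest in rd10 GSK.

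The next steps turn glucose 6-phosphate into fructose 1,6-bisphosphate, and phosphofructokinase is the committed step. Gpi1, the isomerase, did not pass in any of the 6 comparisons, with levels of 933 and 890.1 CPM in wild-type saline and 817, 894 and 852 in rd10 saline. Of the 3 phosphofructokinase subunits, Pfkl (-0.28 ± 0.10, adjusted p = 0.0425) and Pfkp (-0.21 ± 0.067, adjusted p = 0.0227) fell in rd10 saline and Pfkp rose under GSK (0.23 ± 0.06, adjusted p = 0.011). Both falls ended without either wild-type saline library (adjusted p = 0.294 and 0.06 for Pfkl, 0.0702 and 0.145 for Pfkp), and the fall of Pfkl also without any one rd10 saline library or wild-type GSK replicate 1 (adjusted p = 0.06 to 0.086). The rise of Pfkp under GSK ended without the lens-bearing libraries (adjusted p = 0.0508). Pfkm, the muscle-type subunit and in wild-type saline the most abundant of the 3 per length (73.4 CPM per kb), was at 259.6, 262 and 244 CPM in rd10 saline and 189, 189.6 and 219 in rd10 GSK and fell under GSK (-0.36 ± 0.063, adjusted p = 0.00127; -0.060 under the inner retina scaling). All treated rd10 libraries were below the untreated ones for Pfkm.

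Fructose 2,6-bisphosphate is the strongest activator of phosphofructokinase, and the 4 bifunctional Pfkfb enzymes make and remove it. Pfkfb2, the form that carries most of this RNA in retina, stood at 513 and 520.0 CPM in wild-type saline, 121, 107 and 151 in rd10 saline and 162, 208 and 296 in rd10 GSK. It had the largest fall of the 39 genes (-2.03 ± 0.22, adjusted p = 0.000153). Under GSK it rose (0.82 ± 0.20, adjusted p = 0.0147) but every treated library stayed below both wild-type ones (-1.22 ± 0.22, adjusted p = 0.00592 against wild-type saline). The rise missed the threshold without rd10 saline replicate 2 (0.72, adjusted p = 0.0517) and in a fit of these 6 libraries alone (adjusted p = 0.0751), and the call against wild-type saline ended without the lens-bearing libraries (-1.16, adjusted p = 0.0889).

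Pfkfb3, the form with the highest kinase to phosphatase ratio and known from glia and endothelium, had 59.8 and 50.1 CPM in wild-type saline and 70.3, 65.6 and 78.2 in rd10 saline. It rose there (0.38 ± 0.10, adjusted p = 0.0104), in libraries where all 5 reactive glia markers rose, with a sum at 1903% to 2013% of wild-type saline. Of 5 endothelial markers 1, Kdr, rose there, so that their sum of 183% to 212% of wild-type saline is that of Kdr, and the other 4 overlapped wild type. The part of either cell type in Pfkfb3 was not tested. The call ended without wild-type saline replicate 2 (0.26, adjusted p = 0.141). Pfkfb1, the liver and muscle form, was near the lowest level counted, at 1.05 and 1.32 CPM in wild-type saline, 0.524, 0.785 and 0.649 in rd10 saline and 1.04, 1.52 and 1.24 in rd10 GSK. It fell in rd10 saline (-0.86 ± 0.30, adjusted p = 0.039) and rose under GSK (0.95 ± 0.27, adjusted p = 0.0189). The fall ended without either wild-type saline library, wild-type GSK replicate 1, or rd10 saline replicate 1 or 3 (adjusted p = 0.053 to 0.224), and the rise without rd10 saline replicate 1 or rd10 GSK replicate 2 (adjusted p = 0.0682 and 0.0677). Pfkfb4 did not pass in any comparison.

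Aldolase splits the 6-carbon sugar. Aldoa, the ubiquitous form and the most abundant of the 39 genes per length, stood at 2784 and 2456 CPM in wild-type saline, 1927, 2135 and 2009 in rd10 saline and 2475, 2849 and 2637 in rd10 GSK. The untreated rd10 libraries were below all others, and treated rd10 overlapped wild type. Aldoa fell in rd10 saline (-0.37 ± 0.092, adjusted p = 0.00692), a call that ended without wild-type saline replicate 1 (-0.28, adjusted p = 0.0967), and rose under GSK (0.39 ± 0.083, adjusted p = 0.00386). Aldoc, the form of astrocytes and Müller glia, had 571 and 560.3 CPM in wild-type saline, 577, 613 and 549.5 in rd10 saline and 518, 639 and 635 in rd10 GSK, and these groups overlapped (0.036 ± 0.088, adjusted p = 0.776 and 0.043 ± 0.079, adjusted p = 0.711).

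The middle steps had smaller changes. Tpi1, the triose phosphate isomerase, did not pass in any comparison (0.17 ± 0.088, adjusted p = 0.136 in rd10 saline against wild type). Pgk1, the first step that makes ATP, had a log2 change of -0.18 ± 0.076 in rd10 saline (adjusted p = 0.0711) and -0.071 ± 0.068 under GSK (adjusted p = 0.455). Gapdh fell by a small amount in rd10 saline (-0.31 ± 0.064, adjusted p = 0.00258) and rose under GSK (0.19 ± 0.058, adjusted p = 0.0273), the latter lost without any one of rd10 saline replicates 1 and 3 and rd10 GSK replicates 2 and 3 (adjusted p = 0.0585, 0.0681, 0.0832 and 0.0738). Its level of 34.7 CPM per kb in wild-type saline, against 273 for Tpi1 and 900.1 for Aldoa, is uncertain, since Gapdh has many near-identical pseudogenes that could take or lend reads.

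Phosphoglycerate mutase and enolase complete the payoff phase. Pgam1, the main mutase, fell in rd10 saline (-0.30 ± 0.073, adjusted p = 0.00595), a call lost without wild-type saline replicate 1 (-0.19, adjusted p = 0.106), and did not pass under GSK (0.066 ± 0.065, adjusted p = 0.475). Counts assigned to the copy Pgam1-ps2 were 3.98% of those of Pgam1. Pgam2, the muscle mutase, was at 1.29 and 2.77 CPM in wild-type saline, 1.22, 1.02 and 0.649 in rd10 saline and 2.47, 3.78 and 3.59 in rd10 GSK. It fell in rd10 saline (-1.09 ± 0.34, adjusted p = 0.0247) and rose under GSK (1.77 ± 0.30, adjusted p = 0.00117). The fall ended without wild-type saline replicate 2 (-0.43, adjusted p = 0.442) or rd10 saline replicate 3 (-0.87, adjusted p = 0.0774). Bpgm, which makes 2,3-bisphosphoglycerate in red cells, was at 73.9, 79.8 and 71.02 CPM in rd10 saline and 97.6, 96.8 and 93.2 in rd10 GSK without overlap, and rose under GSK (0.36 ± 0.054, adjusted p = 0.000552). Red cell markers summed to 31.7 to 37.4 CPM in rd10 saline and 39.9 to 75.9 CPM in rd10 GSK, and their part in Bpgm was not tested. Wild-type saline had higher red cell sums, 86.2 and 107 CPM, at a Bpgm level of 82.4 and 81.9 CPM.

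Eno1, the ubiquitous enolase, had 1738 and 1601 CPM in wild-type saline, 1774, 1881 and 1696 in rd10 saline and 1336, 1426 and 1366 in rd10 GSK. Untreated rd10 overlapped wild type (0.10 ± 0.072, adjusted p = 0.319), and every treated rd10 library was below all of these. Eno1 fell under GSK (-0.37 ± 0.064, adjusted p = 0.00115; -0.073 under the inner retina scaling). The near-identical Eno1b held 2.79% as many counts as Eno1. Eno2, the neuronal enolase, stood at 807 and 785 CPM in wild-type saline, 684, 693 and 631 in rd10 saline and 605, 621 and 644 in rd10 GSK. It fell in rd10 saline (-0.25 ± 0.061, adjusted p = 0.00685), a call that ended without wild-type saline replicate 1 (-0.23, adjusted p = 0.0628), and did not pass under GSK (-0.10 ± 0.055, adjusted p = 0.173). Eno3, the muscle enolase, had 14.4 and 17.3 CPM in wild-type saline, 11.3, 11.4 and 11.6 in rd10 saline and 13.1, 19.98 and 17.6 in rd10 GSK. Eno3 fell in rd10 saline (-0.47 ± 0.17, adjusted p = 0.0428) and rose under GSK (0.56 ± 0.15, adjusted p = 0.0147). The fall ended without any one wild-type saline or rd10 saline library or wild-type GSK replicate 1 (adjusted p = 0.0601 to 0.285), and the rise without rd10 GSK replicate 2 (0.44, adjusted p = 0.0557). Skeletal muscle markers summed to 34.7 CPM in rd10 GSK replicate 3 and to 3.00 to 6.31 CPM in all other libraries. The part of muscle RNA in Pgam2 and Eno3 was not tested.

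Pyruvate kinase makes pyruvate and ATP. Pkm, whose 2 splice forms are counted together here, stood at 3152 and 2912 CPM in wild-type saline, 1919, 2072 and 1962 in rd10 saline and 2397, 2851 and 2816 in rd10 GSK. Untreated rd10 libraries lay below all treated ones, and these below both wild-type saline libraries. Pkm fell in rd10 saline (-0.61 ± 0.084, adjusted p = 0.000173) and rose under GSK (0.44 ± 0.076, adjusted p = 0.0012), and both calls held in every alternative tried. Treated rd10 did not pass against wild-type saline (-0.17 ± 0.084, adjusted p = 0.153).

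Lactate dehydrogenase is built from A subunits, which favour the making of lactate, and B subunits, which favour its use. Ldha had 1251 and 1130.0 CPM in wild-type saline, 645, 719 and 700.3 in rd10 saline and 862, 905 and 946 in rd10 GSK, 3 levels without overlap. It fell in rd10 saline (-0.79 ± 0.08, adjusted p = 2.15e-05) and rose under GSK (0.39 ± 0.072, adjusted p = 0.00175) to a level still below wild-type saline (-0.40 ± 0.08, adjusted p = 0.00555; -0.15 and adjusted p = 0.152 under the inner retina scaling). That last call ended without wild-type saline replicate 1 (adjusted p = 0.0828). Ldhb had 172 and 162 CPM in wild-type saline, 165, 192 and 161 in rd10 saline and 123, 130.1 and 140.2 in rd10 GSK. Wild-type and rd10 saline overlapped (0.044 ± 0.08, adjusted p = 0.699) and every treated rd10 library was lower, so that Ldhb fell under GSK (-0.40 ± 0.072, adjusted p = 0.00165; -0.093 under the inner retina scaling).

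Lactate leaves and enters cells with a proton through monocarboxylate transporters. Slc16a1 encodes MCT1, found on photoreceptors and the apical pigment epithelium, and stood at 303 and 324 CPM in wild-type saline, 122, 121 and 132 in rd10 saline and 158, 213 and 305 in rd10 GSK. The untreated rd10 libraries were tight and lowest, and the treated ones were spread from just above them to the wild-type level. Slc16a1 fell in rd10 saline (-1.32 ± 0.21, adjusted p = 0.00109) and rose under GSK (0.85 ± 0.19, adjusted p = 0.00897), the rise missing the threshold in a fit of these 6 libraries alone (0.85, adjusted p = 0.0583). Slc16a3 encodes MCT4, an export carrier of glycolytic cells that Müller glia are known for, and had 104 and 87.1 CPM in wild-type saline, 59.6, 58.2 and 67.7 in rd10 saline and 98.5, 106 and 97.7 in rd10 GSK. Here the treated libraries were close together and overlapped wild type. Slc16a3 fell in rd10 saline (-0.63 ± 0.13, adjusted p = 0.00404), at adjusted p = 0.0507 without wild-type saline replicate 1, and rose under GSK (0.70 ± 0.12, adjusted p = 0.00173). Of 6 Müller glia markers 4 (Slc1a3, Aqp4, Dkk3 and Kcnj10) rose in rd10 saline and 5, all but Glul, fell under GSK, with median log2 changes of 0.77 and -0.58. Their summed level, of which Glul is the largest part, was 107% to 112% of wild-type saline in rd10 saline and 58.3%, 70.5% and 93.7% in rd10 GSK. The part of Müller glia in Slc16a3 was not tested.

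Slc16a7, the neuronal MCT2, did not pass in any comparison and was at or under 12.1 CPM in every library. Slc16a8 encodes MCT3, the basolateral carrier of the pigment epithelium, and had 2.92 and 9.00 CPM in wild-type saline, 1.44, 3.42 and 1.54 in rd10 saline and 1.27, 7.24 and 5.77 in rd10 GSK. It did not pass (-1.50 ± 0.73, adjusted p = 0.141 and 1.15 ± 0.68, adjusted p = 0.231). Pigment epithelium markers summed to 59.8 and 152 CPM in the wild-type saline libraries, 29.3, 75.9 and 30.4 in rd10 saline and 29.4, 114 and 82.7 in rd10 GSK. Within each of these groups the library with the highest sum also had the most Slc16a8. This did not hold in wild-type GSK, where the sums were 165, 210 and 198 CPM in replicates 1, 2 and 3. Slc16a8 there had 8.77, 11.1 and 12.2 CPM.

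The promoters of Hk2, Slc16a1 and Slc16a3 are shown as examples of the genes that fell in rd10 saline and rose under GSK. They do not stand for all such genes. The promoter of Hkdc1 is shown because this gene went the other way. Each is the 250 bases before the RefSeq start in GRCm38.p6, read 5′ to 3′ on the strand of the gene: Hk2 at chr6:82774455-82774704 (minus strand), Slc16a1 at chr3:104638414-104638663 (plus), Slc16a3 at chr11:120948817-120949066 (plus) and Hkdc1 at chr10:62422458-62422707 (minus). Capitals mark the core of the hypoxia response element, ACGTG on either strand (CACGT when read on the other), and the E-box CACGTG, which contains that core.
Hk2: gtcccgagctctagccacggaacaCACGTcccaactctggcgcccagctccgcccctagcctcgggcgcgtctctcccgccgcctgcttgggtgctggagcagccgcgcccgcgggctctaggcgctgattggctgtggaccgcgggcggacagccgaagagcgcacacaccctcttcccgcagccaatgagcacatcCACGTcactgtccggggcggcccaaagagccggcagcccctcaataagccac
Slc16a1: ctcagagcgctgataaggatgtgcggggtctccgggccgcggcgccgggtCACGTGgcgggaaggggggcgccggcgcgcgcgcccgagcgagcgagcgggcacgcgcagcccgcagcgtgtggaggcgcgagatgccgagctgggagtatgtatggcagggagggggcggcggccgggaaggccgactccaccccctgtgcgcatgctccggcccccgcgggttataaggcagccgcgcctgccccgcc
Slc16a3: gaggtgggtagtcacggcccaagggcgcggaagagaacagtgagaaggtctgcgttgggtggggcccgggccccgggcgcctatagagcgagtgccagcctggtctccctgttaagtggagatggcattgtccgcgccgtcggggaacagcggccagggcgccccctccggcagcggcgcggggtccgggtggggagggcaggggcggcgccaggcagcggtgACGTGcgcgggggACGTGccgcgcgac
Hkdc1: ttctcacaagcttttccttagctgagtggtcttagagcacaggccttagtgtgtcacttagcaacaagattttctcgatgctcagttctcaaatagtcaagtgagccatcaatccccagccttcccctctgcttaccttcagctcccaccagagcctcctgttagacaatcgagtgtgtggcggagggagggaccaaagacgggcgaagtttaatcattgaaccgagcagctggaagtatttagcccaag
Hk2 held the core at 226 and 52 bases before the start, Slc16a1 an E-box at 200, and Slc16a3 the core at 27 and 14. The Hkdc1 window held none of the 5 motifs searched. Among other genes that fell in rd10 saline and rose under GSK, Pfkfb2, Aldoa, Pkm and Ldha had ACGTG in a window. Hk1, Pfkp, Pfkfb1 and Pgam2, with the same fall and rise, had none. Pfkm and Pdk2, which fell under GSK, had it, and Eno1, which also fell under GSK, did not. ACGTG was present in 19 of 57 windows of 37 matched genes (33.3%). It was in 16.6% of all 32851 mouse windows of the same length and 20.3% of the 15309 windows of tested genes. The GC content was 58.9% in the 57 windows and 59.4% in those of tested genes. CACGTG was in 10.5% of the 57 windows, against 6.02% of all windows and 7.77% of those of tested genes. The letters TAATCC of CRX were in 8.77%, against 6.25% and 5.47%. TGCTGA of NRL was in 8 of 57 windows, against 16.1% and 13.5%, and AAGGTCA of the ERR receptors in 3.51%, against 4.08% and 3.02%, so that these last motifs lay below the share of all windows and near that of tested genes. All were searched on both strands. These matches describe the letters in the windows and are not measured sites, and no binding was measured.

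Pyruvate enters the mitochondrion through a carrier of 2 subunits, Mpc1 and Mpc2, neither of which passed in any comparison (Mpc1 under GSK -0.21 ± 0.076, adjusted p = 0.0501). The E1 subunits of pyruvate dehydrogenase, which commits pyruvate to the citrate cycle, were Pdha1 and Pdhb. Pdhb stood at 110.4 and 109.6 CPM in wild-type saline, 88.8, 92.5 and 81.6 in rd10 saline and 90.3, 87.5 and 92.7 in rd10 GSK. It fell in rd10 saline (-0.33 ± 0.06, adjusted p = 0.00117) and was not changed by GSK past the threshold (0.041 ± 0.054, adjusted p = 0.593), with all rd10 libraries below wild type. Pdha1 fell slightly under GSK (-0.14 ± 0.046, adjusted p = 0.0384), a call lost in 12 of the 19 alternatives besides the Xist term, in 8 of them by leaving out 1 library (adjusted p = 0.0523 to 0.147), and reversed to 0.17 (adjusted p = 0.0443) under the inner retina scaling. Of the 4 kinases that switch the complex off, Pdk2 fell under GSK (-0.25 ± 0.065, adjusted p = 0.0136; 0.057 under the inner retina scaling, adjusted p = 0.0746 without the lens-bearing libraries). Pdk1, Pdk3 and Pdk4 did not pass in any comparison.

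Shares within a family do not depend on the scaling of libraries, and they were computed in each library from CPM per kilobase of exon. Hk2 made up 35.2% and 34.6% of hexokinase RNA in wild-type saline, 18.6%, 16.1% and 20.7% in rd10 saline and 30.5%, 33.1% and 41.5% in rd10 GSK. For Ldha the share of lactate dehydrogenase RNA was 77.5% and 76.8% in wild-type saline, 64.95%, 64.05% and 67.4% in rd10 saline and 76.9%, 76.7% and 76.2% in rd10 GSK, so the treated libraries overlapped wild type in the share while Ldha itself stayed lower. Pfkfb2 took 86.6% and 88.3% of the Pfkfb RNA in wild-type saline, 58.6%, 56.01% and 61.5% in rd10 saline and 65.5%, 72.7% and 79.4% in rd10 GSK. Slc2a3 took 17.5% and 17.6% of the 2 glucose carriers in wild-type saline, 26.4%, 21.8% and 23.4% in rd10 saline and 17.7%, 14.3% and 16.4% in rd10 GSK. The share of Aldoc in the 2 aldolases was 15.5% and 16.9% in wild-type saline, 21.1%, 20.4% and 19.6% in rd10 saline and 15.7%, 16.7% and 17.7% in rd10 GSK. Slc16a1 took 75.9% and 77.7% of the RNA of the 4 monocarboxylate transporters in wild-type saline, 68.3%, 67.7% and 67.5% in rd10 saline and 64.4%, 66.7% and 76.1% in rd10 GSK, where 2 of 3 treated libraries lay below all untreated ones and 1 above them. Treated and untreated rd10 libraries did not overlap for 7 of the 8 families, Pfkm and Eno2 included, and overlapped for Slc16a1. Of all single genes 42.7% did not overlap in this comparison, and the share among other isoform families was not computed. The families were chosen with earlier results known, so their count is no independent evidence. An exact two-sided permutation test of 3 against 3 gives 0.1 for each of the 7, the smallest p it allows (0.114 adjusted over the 8 by Benjamini-Hochberg), and 1.0 for Slc16a1.

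**Figure D3:**
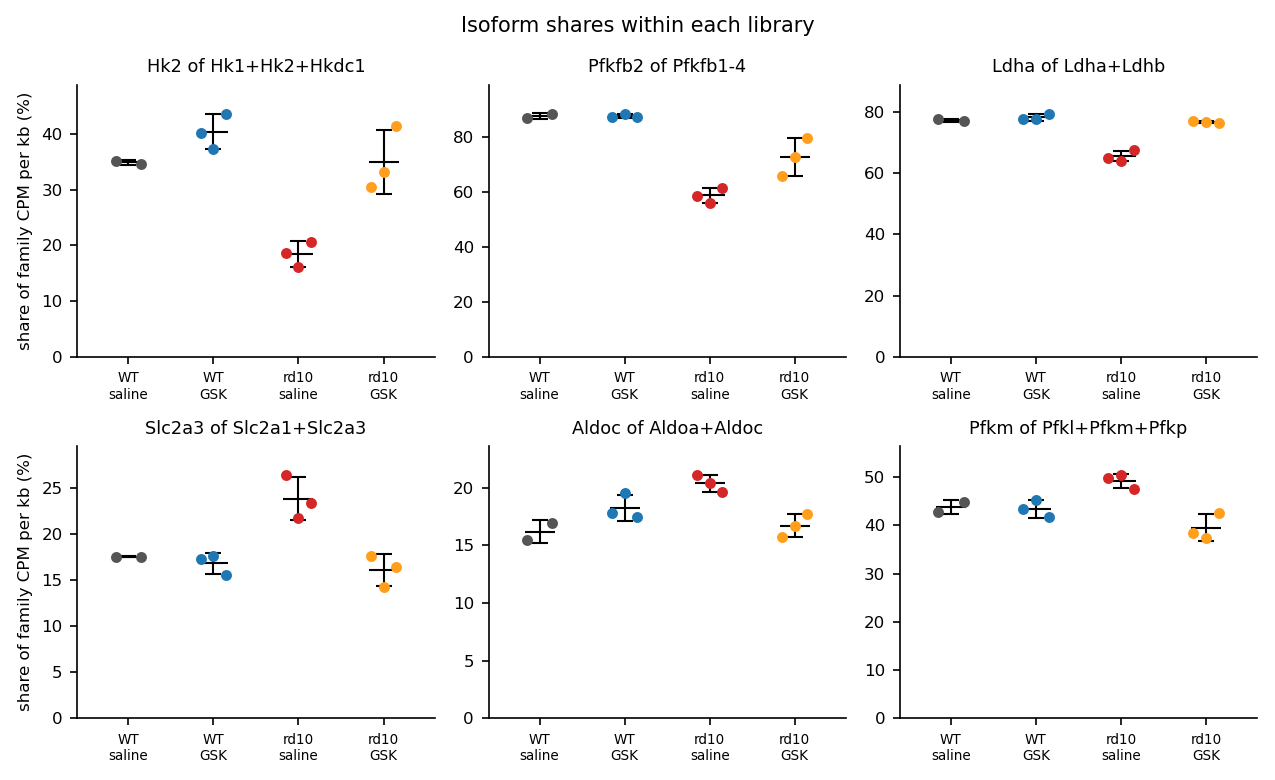
Share of one isoform in the summed CPM per kb of its family (y axis, percent) in each library (points), with group mean and standard deviation. The Ldha share is 64.95%, 64.05% and 67.4% in the rd10 saline libraries and 76.9%, 76.7% and 76.2% in rd10 GSK.

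Genes were sorted by the kind of cell each isoform is known for. The sorting was made with earlier results of these data in view and is no independent evidence. All 5 genes sorted to photoreceptors (Hk2, Pfkfb2, Pkm, Ldha, Slc16a1) fell in rd10 saline, with a median of -1.32. All 5 rose under GSK, with a median of 0.82. Counts of Pkm hold both splice forms, so at this level Pkm is not a form of photoreceptors alone. The shares of all tested genes were 19.0% lower and 21.5% higher in rd10 saline, and 17.6% higher and 15.2% lower under GSK. Of 18 ubiquitous genes 7 fell and none rose in rd10 saline (median -0.14), and 5 rose and 4 fell under GSK (median -0.015). Of 3 glial genes 1 rose and 1 fell in rd10 saline, and 1 rose under GSK. Of 3 neuronal genes 1 rose and 1 fell in rd10 saline, and 1 fell under GSK. The fall and rise were not particular to the photoreceptor isoforms. Among the ubiquitous genes Hk1 (-0.50 and 0.83), Aldoa (-0.37 and 0.39), Pfkp and Gapdh also fell in rd10 saline and rose under GSK. So did the glial Slc16a3 (-0.63 and 0.70), 2 of 3 muscle genes, Pgam2 and Eno3, and Pfkfb1, the liver and muscle form. The third muscle gene, Pfkm, fell under GSK. Of 4 genes sorted to none of these, 1 rose in rd10 saline and 1 fell under GSK, in both cases Hkdc1.

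The photoreceptor isoforms did not keep the same distance from wild type. With the mean of wild-type saline set to 100, the rd10 saline libraries had 11.9%, 11.6% and 14.3% of the rod marker sum, 31.6%, 27.05% and 36.9% of Hk2, 23.4%, 20.6% and 29.3% of Pfkfb2, 38.9%, 38.6% and 42.2% of Slc16a1 and 54.2%, 60.4% and 58.8% of Ldha. In rd10 GSK replicates 1, 2 and 3, against 39.6%, 63.9% and 77.6% of the rod sum, Hk2 was at 97.00%, 122% and 173%. Slc16a1 was at 50.4%, 68.00% and 97.3% and Pfkfb2 at 31.4%, 40.3% and 57.3% in the same libraries. Ldha was at 72.4%, 76.05% and 79.5%. Pkm was at 79.1%, 94.02% and 92.9%, and at 63.3%, 68.3% and 64.7% in the rd10 saline libraries. Thus Hk2 was above the rod sum in each treated library and Pfkfb2 below it, and replicate 3 had the most of Hk2, Slc16a1, Pfkfb2, Ldha and the rod sum. The part of rod content in these levels was not tested. Microglial markers, at 602% to 739% of wild-type saline in rd10 saline, were at 360%, 260% and 174% in the treated libraries.

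**Figure D4:**
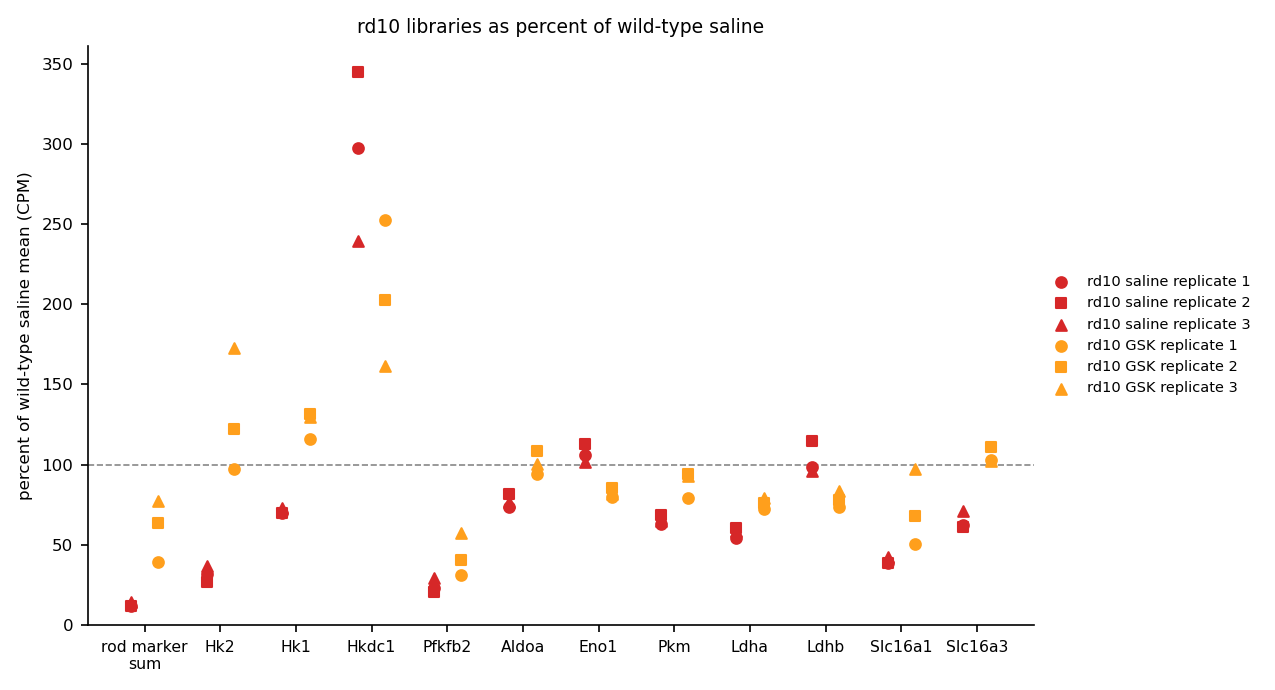
Level in each rd10 library as percent of the wild-type saline mean (y axis; dashed line at 100) for the sum of 8 rod markers and 11 genes; colours mark treatment and symbols the replicate number, which has no order. Hk2 in rd10 GSK lies at 97.00%, 122% and 173%, above the rod marker sum of the same libraries.

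In wild-type retina GSK changed none of the 39 genes by edgeR, where 0.532% of all tested genes passed. At an unadjusted p under 0.05 there were 2, Eno2 (-0.15 ± 0.061) and Ldhb (-0.23 ± 0.08), and DESeq2 and limma-voom called 0. A fit of the wild-type libraries alone called 3, Aldoc, Eno2 and Ldhb, where 579 of all 17099 tested genes were higher and 334 lower. Hk2 had 492, 442 and 583 CPM in wild-type GSK, above both wild-type saline libraries (0.30 ± 0.23, adjusted p = 0.845), and Ldha had 1063, 1000.2 and 1154 CPM (-0.15 ± 0.081, adjusted p = 0.673). Changes ran from -0.87 for Pdk4, at or under 1.05 CPM in every library, to 0.83 for Slc16a8. With 2 saline animals a gene that did not pass is not shown to be unchanged. For 4 genes all treated wild-type libraries were higher and for 7 all were lower, against 34.4% of all genes without overlap.

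The test of the difference between the GSK effects in rd10 and wild type passed for 8 of 39 genes, 7 with a higher and 1 with a lower effect in rd10, where 12.5% of all genes passed (7.49% higher, 4.98% lower). The largest was Hk2 (1.74 ± 0.30, adjusted p = 0.00772), followed by Hk1 (0.88 ± 0.089, adjusted p = 0.000171), Ldha (0.54 ± 0.11, adjusted p = 0.0078), Pkm (0.47 ± 0.11, adjusted p = 0.0195), Aldoa (0.45 ± 0.12, adjusted p = 0.0354), Bpgm (0.35 ± 0.081, adjusted p = 0.0166) and Gapdh (0.31 ± 0.086, adjusted p = 0.0395). Eno1 differed in the other direction (-0.35 ± 0.10, adjusted p = 0.0376; -0.074 under the inner retina scaling). Slc16a1 (0.87 ± 0.28, adjusted p = 0.0797) and Pfkfb2 (0.91 ± 0.30, adjusted p = 0.0848) did not pass. The call of Hk1 held in every alternative tried. Leaving out 1 library ended the call of Ldha (without wild-type saline replicate 1, adjusted p = 0.0577), of Bpgm (without either wild-type saline library, adjusted p = 0.0667 and 0.0722) and of Pkm (without wild-type saline replicate 1, wild-type GSK replicate 2 or rd10 GSK replicate 2, adjusted p = 0.053 to 0.107). The calls of Aldoa, Gapdh and Eno1 ended in 7, 9 and 6 of the 11 omissions of a library (adjusted p = 0.054 to 0.178, 0.0598 to 0.162 and 0.0657 to 0.179). Without the lens-bearing libraries 2 of the 8 held, Hk1 and Ldha, and Hk2 had 1.84 (adjusted p = 0.0556). Fewer of all tested genes passed without the lens-bearing libraries as well. Under the inner retina scaling 20 genes had a higher effect in rd10 and none a lower one. Of all genes 4441 had a higher and 205 a lower effect under it, at a median of 0.27. Counts with 1 library left out ran from 3, without wild-type saline replicate 1, to 14, without rd10 GSK replicate 1. The other libraries whose omission moved the count by more than 1.5 times were wild-type saline replicate 2 (4), wild-type GSK replicates 1 and 2 (5 each) and rd10 GSK replicate 2 (4).

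Treated rd10 retina was also set against wild type of either treatment, where 13 and 11 of the 39 genes passed. Against wild-type saline 10 were lower and 3 higher (33.3%, against 24.4% of all genes, of which 14.1% higher and 10.3% lower). Of the 39 genes 16 lay wholly below and 4 wholly above, where 53.5% of all genes did not overlap. Without the lens-bearing libraries, or without wild-type saline replicate 1, 1 wild-type saline library is left. Fewer of the 39 genes and fewer of all genes passed there. Against wild-type GSK 7 were lower and 4 higher (28.2%, close to the 26.2% of all genes, of which 15.4% higher and 10.9% lower). Of the 39 genes 10 lay wholly below and 6 wholly above, where 44.2% of all genes did not overlap. The number called was 5, 6 and 7 without wild-type GSK replicates 1, 2 and 3. Of all genes 1530, 1592 and 1770 were then higher and 978, 1061 and 1145 lower (2625 and 1859 in the main fit). Without rd10 GSK replicate 2 it was 6, where 1989 of all genes were higher and 1148 lower. Without the lens-bearing libraries fewer of the 39 genes and fewer of all genes passed. Under the inner retina scaling 13 were higher and 1 lower against wild-type saline, where 6013 of all genes were higher and 314 lower. Against wild-type GSK 15 were higher and 1 lower under it, where 6335 of all genes were higher and 406 lower. The medians of all genes were 0.25 and 0.22. Pfkfb2 (-1.12 ± 0.20, adjusted p = 0.00575) and Pdhb (-0.29 ± 0.054, adjusted p = 0.00381; -0.072 under the inner retina scaling) were lower and Hkdc1 (0.78 ± 0.16, adjusted p = 0.00732) and Hk1 (0.39 ± 0.06, adjusted p = 0.00148) higher than in wild-type GSK. Hk2 did not pass against either (0.39 ± 0.23, adjusted p = 0.255 and 0.09 ± 0.20, adjusted p = 0.785), with a spread in rd10 GSK of 538 ± 159 CPM (mean ± SD, n = 3). Those comparisons also share the rd10 GSK libraries with the others.

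Neighbouring pathways were read from further lists, chosen like the 39 genes with earlier results known. In rd10 saline their counts stand against 21.5% of all tested genes higher and 19.0% lower. Under GSK they stand against 17.6% higher and 15.2% lower, and under the inner retina scaling against 8179 higher and 458 lower of 17099. Glycogen genes moved opposite to the photoreceptor isoforms: of 9 tested, 7 rose and none fell in rd10 saline (median 0.45), and 7 fell and none rose under GSK (median -0.34). Pygb, the brain glycogen phosphorylase, had 122 and 117 CPM in wild-type saline, 153, 154 and 152 in rd10 saline and 85.9, 94.2 and 100.5 in rd10 GSK, 3 levels without overlap (0.36 ± 0.066, adjusted p = 0.00126 and -0.71 ± 0.059, adjusted p = 1.12e-05). Gbe1, the branching enzyme (0.51 ± 0.081 and -0.46 ± 0.072), and Pygm, the muscle phosphorylase (0.45 ± 0.073 and -0.45 ± 0.064), moved likewise, and Gys1, the muscle glycogen synthase, rose in rd10 saline (0.59 ± 0.12, adjusted p = 0.00254; adjusted p = 0.052 without the lens-bearing libraries). Under the inner retina scaling 1 of the 9, Pygb, still fell with GSK (-0.41, against -0.16 for Gbe1 and -0.14 for Pygm) and the median was -0.046, and leaving out rd10 saline replicate 1 or 3 left 4 falls. In Müller glia, the main glycogen store of retina, 4 of 6 markers rose in rd10 saline and 5 of 6 fell under GSK, and the part of these cells in the glycogen genes was not tested.

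Among 12 partners and regulators, 3 rose and 5 fell in rd10 saline, and 5 rose and 3 fell under GSK. Nxnl1, the gene of a factor released by rods that promotes glucose uptake by cones, had 409 and 401 CPM in wild-type saline, 48.1, 49.7 and 58.9 in rd10 saline and 96.6, 159 and 182 in rd10 GSK (-2.95 ± 0.22, adjusted p = 1.87e-05 and 1.48 ± 0.20, adjusted p = 0.000755). Esrrb, a nuclear receptor of rods, changed alike (-2.77 ± 0.24 and 2.18 ± 0.22), as did Tigar, a fructose 2,6-bisphosphate phosphatase (-0.94 ± 0.073 and 0.50 ± 0.067). Txnip, an inhibitor of glucose uptake, rose in rd10 saline (1.24 ± 0.16, adjusted p = 0.000146) and fell under GSK (-0.42 ± 0.13, adjusted p = 0.0323; -0.12 under the inner retina scaling), the fall lost without any one of rd10 saline replicates 2 and 3 and rd10 GSK replicates 1 and 2 (adjusted p = 0.109, 0.0817, 0.0796 and 0.109). Of these 12 genes, 1 rose in rd10 saline in place of 3 when the lens-bearing libraries were left out, and likewise when replicate 1 of wild-type saline was, and without rd10 saline replicate 3 1 fell under GSK in place of 3.

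In the 7 partners of pyruvate dehydrogenase and pyruvate carboxylase, 4 fell and none rose in rd10 saline (median -0.25), among them Dld (-0.36 ± 0.05, adjusted p = 0.000209), a subunit of the complex, and 1 rose and 1 fell under GSK (6 and 0 under the inner retina scaling). Of 10 genes of the NADH shuttles 6 fell and 2 rose in rd10 saline, with Got1 (-0.42 ± 0.061, adjusted p = 0.000252) and Got2 (-0.43 ± 0.067, adjusted p = 0.000433), the aspartate aminotransferases, lower. Without wild-type saline replicate 1 these counts were 3 and 1, and without replicate 2 they were 4 and 0. Under GSK 2 of the 10 rose and 1 fell, near the shares of all genes, and under the inner retina scaling 7 rose and none fell. The number of rises was 1 without rd10 saline replicate 1 or 3 or rd10 GSK replicate 3, 3 without rd10 GSK replicate 1, and 4 without rd10 saline replicate 2. The pentose phosphate list had 1 rise, 1 fall and 6 genes that did not pass in rd10 saline, and none of its 8 genes passed under GSK (5 rose under the inner retina scaling). The fall, of G6pdx (-0.16 ± 0.053, adjusted p = 0.031), was absent without wild-type saline replicate 1 or rd10 saline replicate 3. H6pd, the dehydrogenase of the endoplasmic reticulum, was the riser (1.14 ± 0.19, adjusted p = 0.000781). Of 13 citrate cycle genes 5 fell and 1 rose in rd10 saline, with 0 falls left without wild-type saline replicate 1, 1 without wild-type saline replicate 2 or rd10 saline replicate 3, 2 without rd10 saline replicate 1 and 3 without wild-type GSK replicate 1. Under GSK 2 fell (15.4%, near the 15.2% of all genes), and under the inner retina scaling 10 rose and none fell. Suclg2, the GTP-specific succinyl-CoA ligase subunit, was the 1 that rose (1.65 ± 0.23, adjusted p = 0.000193). Vegfa (0.31 ± 0.066, adjusted p = 0.00402), Ndrg1 (0.47 ± 0.10, adjusted p = 0.00333) and Kdm3a (0.33 ± 0.076, adjusted p = 0.00564), targets of the hypoxia-inducible factors, were the 3 of 8 tested hypoxia genes that rose under GSK, and Hif1a also rose (0.34 ± 0.059, adjusted p = 0.00139). Ndrg1 (-0.65 ± 0.11) and Kdm3a (-0.66 ± 0.084) had fallen in rd10 saline, and Vegfa had not passed (-0.032 ± 0.073, adjusted p = 0.756). Of the paralogs outside the 39 genes, 10 of 18 were tested, with 3 higher and 1 lower in rd10 saline, among them Hk3, the hexokinase of myeloid cells (3.93 ± 0.67, adjusted p = 0.00108), beside microglial markers at 602% to 739% of wild-type saline, whose part was not tested. In that list 3 fell under GSK, and 0 without the lens-bearing libraries or rd10 saline replicate 2 and 1 without rd10 GSK replicate 2 or 3.

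**Figure D5:**
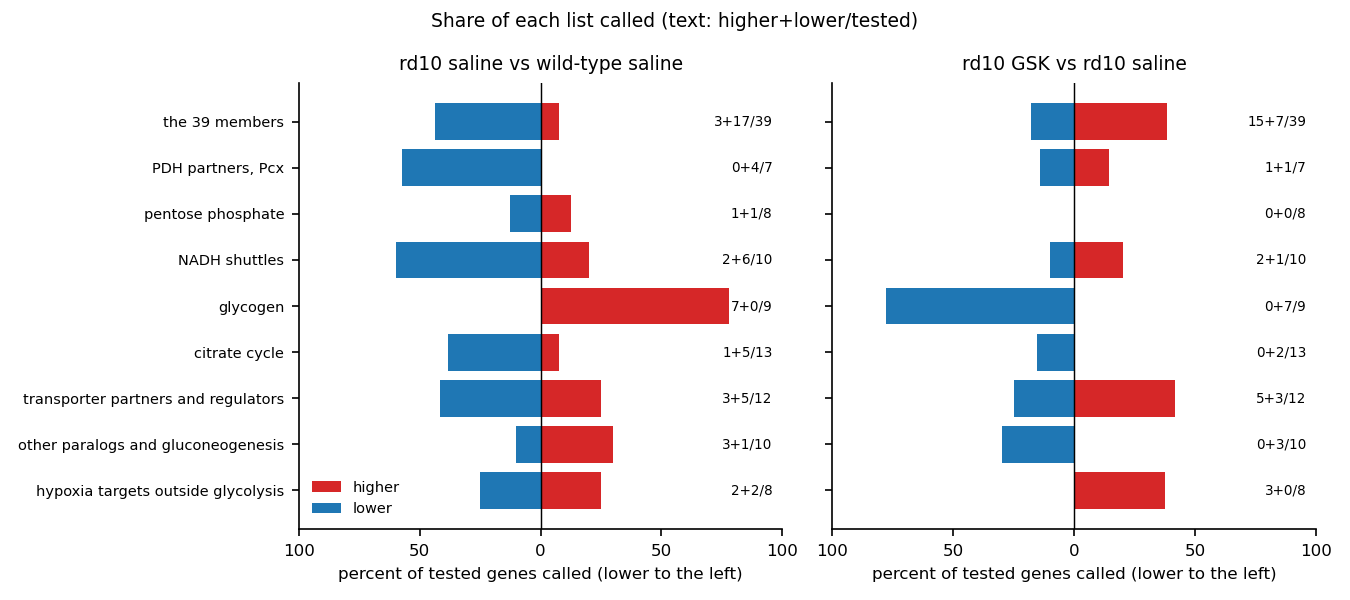
Percent of the tested genes of each list that passed (x axis; higher to the right in red, lower to the left in blue) for both comparisons, with the counts printed as higher, lower and tested. The glycogen list has 7 of 9 genes higher in rd10 saline and 7 of 9 lower under GSK.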

How the data were processed

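The authors deposited 1 table of raw read counts per Ensembl gene for 11 libraries, and every column matched a sample (0 unmapped). Per the submitters' processing notes, bcl2fastq, HISAT2 2.1.0, HTSeq and edgeR were used, and the builds named are NCBIM37 and mm9. The HTSeq release, its strand setting and the gene models were not given in the sources used here. Gene names and exon lengths came from GENCODE M21 (32919 of 37991 identifiers named, and the 5072 unnamed held 0.627% of counts), and promoters from RefSeq GRCm38.p6.

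From these counts, filterByExpr (minimum count 10, total 15) kept 17099 genes. TMM scaling, robust glmQLFit with 1 coefficient per group over all 11 libraries and glmQLFTest were run in edgeR 4.0.16 (R 4.3.3), with Benjamini-Hochberg adjustment over all tested genes. Levels are CPM, and CPM per kilobase of exon where genes are compared. Alternatives used DESeq2 1.42.0, limma 3.58.1, other scalings, filters, library subsets, a replicate block and, added after seeing the data, a term for Xist above 1 CPM. The procedure was tested on simulated counts.

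The genes, lists and isoform classes were chosen with earlier results of these data known. Most genes given in full changed by at least 0.5 (log2) in a passing main test or belong to an isoform pair. Pdhb, Bpgm and Slc16a8 were given in full outside this rule. From each further list at most 4 passing genes with large changes were named, beside risers or fallers singled out after their values were seen.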

Additional observations from a re-analysis of the deposited data

Results flagged for a closer look

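For 8 genes the effect of GSK in rd10 differed from that in wild type by the interaction test of edgeR. The effect in rd10 minus that in wild type, on the log2 scale, was 1.74 for Hk2, 0.88 for Hk1, 0.54 for Ldha, 0.47 for Pkm, 0.45 for Aldoa, 0.35 for Bpgm and 0.31 for Gapdh, and -0.35 for Eno1. For Hk1 the libraries of rd10 GSK lay wholly above those of rd10 saline, while those of wild-type GSK lay wholly below those of wild-type saline without passing the test. No group of 4 or more libraries exists, so single libraries were not screened as outliers.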

How the results depend on the processing

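Of the calls described, 10 of 20 in rd10 saline against wild-type saline, 9 of 22 in rd10 GSK against rd10 saline, 1 of 8 in the interaction, 0 of 13 in rd10 GSK against wild-type saline and 3 of 11 against wild-type GSK held in every alternative besides the Xist term. With 1 library left out, the number of the 39 genes that passed ran from 12 to 21 in rd10 saline against wild-type saline, 17 to 24 in rd10 GSK against rd10 saline, 3 to 14 in the interaction, 3 to 13 in rd10 GSK against wild-type saline and 5 to 13 against wild-type GSK. Without the lens-bearing libraries 2 passed in the interaction (main 8), 1 in rd10 GSK against wild-type saline (main 13) and 4 against wild-type GSK (main 11). Fitting only the compared groups gave 3 in wild-type GSK against wild-type saline (main 0), beside 579 higher and 334 lower of all 17099 genes. That kind of fit gave 6 in rd10 GSK against wild-type saline, beside 869 higher and 678 lower of all genes. DESeq2's test gave 15 in the interaction, where 1413 of all 17099 genes were higher and 1032 lower (1280 and 851 in the main fit). The inner retina scaling gave 20, where 4441 of all genes were higher and 205 lower, at a median of 0.27. The cause was not tested. Under the inner retina scaling 12 of 39 values crossed 0 in rd10 GSK against rd10 saline, 10 in rd10 GSK against wild-type saline and 15 against wild-type GSK. Those called on either scale were, in rd10 GSK against rd10 saline, Pfkfb4 (0.29), Pgk1 (0.23), Eno2 (0.20), Mpc2 (0.19), Pdha1 (0.17) and Pdk2 (0.057). Against wild-type saline they were Pgam1 (0.0048) and Pdha1 (0.036), and against wild-type GSK Gpi1 (0.18), Gapdh (0.21), Eno2 (0.011) and Pdha1 (0.058). That scaling uses few genes.

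With the replicate number as a block, 20 genes passed between the saline groups, 22 between the rd10 groups and 9 in the interaction, 5 of the 9 shared with the fit without it (Hk1, Hk2, Bpgm, Pkm and Ldha). Aldoa, Gapdh and Eno1 did not pass under the block, and Hkdc1, Pfkfb2, Slc16a1 and Slc16a3 did. Same-numbered libraries correlated at -0.198 to 0.426 in their deviations from group means, with 5 of 15 pairs over 0.1 and a median of 0.053. Libraries of different number correlated at -0.426 to 0.206, with 5 of 30 pairs over 0.1 and a median of 0.0032. Since not every same-numbered pair was over 0.1 and no label ties the numbers, the numbers were not taken to pair the animals. Yet 9 of 11 libraries correlated best with their own number. The highest value, 0.426, was that of the lens-bearing pair. The next, 0.249, joined wild-type GSK replicate 2 and rd10 saline replicate 2, which both lacked Xist. Same-numbered libraries of rd10 saline and rd10 GSK correlated at -0.169, -0.138 and -0.0841. What the libraries of a number share was not tested. Replicates numbering 2 or 3 a group limit every test here, and genes near 1 CPM (Pfkfb1, Pgam2, Pdk4) rest on few counts.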
